A study of Mus musculus with 12 samples.

Results

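Blood vessels, lymphatic vessels and the pericytes that wrap capillaries were followed here through 34 genes in tumours of 2 mouse models of clear cell sarcoma and in skeletal muscle. The genes were taken by symbol from the 55536 genes of the count table, no measured value entered the rule, and all 34 were found through their Ensembl identifiers. By role they are 11 blood endothelial surface, junction and secreted genes, 7 genes of the VEGF and TIE receptors and angiopoietins, 6 endothelial transcription factors, 4 tip cell genes, 2 lymphatic genes and 4 pericyte genes.

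Clear cell sarcoma is a soft tissue tumour driven by EWSR1-ATF1, a fusion that joins part of EWSR1 to the DNA-binding end of ATF1, a factor of the cAMP response. The 5 translocation tumours carried the genotype HprtCre; Ewsr1-loxP; Atf1-loxP, in which a Cre named for the Hprt locus, a gene active in most cells, acts on loxP sites in the mouse Ewsr1 and Atf1 genes. The 6 Rosa26 tumours carried Rosa26-LSL-EWSR1-ATF1, in which the fusion is read from the Rosa26 locus once Cre has removed a stop cassette; the Cre used in them is not given in the sources used here. The control was 1 skeletal muscle library of genotype WT, and no drug is named for any group in the sources used here. Ages are not given, and numbers of the libraries follow deposit order and pair nothing. Related titles link translocation tumours 2 and 5 and Rosa26 tumours 5 and 6, the muscle and translocation tumour 1 share a number in theirs, and separate animals are not stated, so the p-values describe the spread between these samples, part of which may be technical.

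VEGF made by hypoxic or tumour cells binds the receptor tyrosine kinases KDR (VEGFR2) and FLT1 (VEGFR1) on endothelial cells, while VEGF-C binds FLT4 (VEGFR3) on lymphatic and sprouting endothelium. Angiopoietins act through the kinase TEK (TIE2): ANGPT1, made largely by mural cells, quiets vessels, and ANGPT2, released by activated endothelium, loosens them. ETS-family and SOXF factors switch on the endothelial gene programme, tip cells lead new sprouts under DLL4 and Notch control, and pericytes steady the capillary wall.

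Libraries held 2.96 to 21.2 M counts (translocation), 6.82 to 21.5 M (Rosa26) and 25.0 M (muscle). Translocation tumour 2 and Rosa26 tumour 4 gave 37.8% and 30.0% of their counts to ribosomal sequence, the others at most 7.38%. The 12 genes of the skeletal muscle list held 13.3% of the muscle library and 5.18% of Rosa26 tumour 1, and at most 0.319% of any other tumour. Levels below are CPM, counts scaled to library size, adjusted by the trimmed mean of M-values (TMM) over the 12 libraries, and fold changes are log2 of translocation over Rosa26 from edgeR's quasi-likelihood fit of the 11 tumours, with adjusted p-values over all 17021 genes tested.

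The data hold endothelial RNA in every library. Between 32 and 34 members had a count in each tumour, and the defining genes Pecam1, Cdh5, Emcn and Vwf were above 0 in all 12. Their CPM in the tumours ran from 10.5 to 114 for Pecam1 and from 5.67 to 88.2 for Cdh5. Emcn had only 1 count in translocation tumour 2, 0.438 CPM, below the 1.31 CPM that 3 counts are worth there. The lymphatic label did not hold as a cell type: Prox1, the master factor of lymphatic identity, was at 0.768 CPM or less in the translocation tumours and at 2.95 CPM or less in the Rosa26 tumours, against 8.50 CPM in muscle. Prox1 and Pdpn are therefore named singly below.

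Of the 34 members, 33 passed the filter on low counts and Prox1 did not. Between the models 1 member rose in the translocation tumours, Egfl7, and 2 fell, Flt4 and Erg, at an edgeR adjusted p below 0.05. Over all genes tested, 2.7% were called, 1.14% higher and 1.56% lower. A total of 28 of the 33 members had a fold change below 0 and 5 above, where 46.8% of all genes were below and 53.2% above, and the median over the 33 was -1.04 against 0.07 over all genes. At an unadjusted p below 0.05 stood 17 of the 33, against 24.8% of all genes. Only Erg had groups that did not overlap, against 5.32% of all genes, 3.12% lower and 2.2% higher. In bulk tissue, fewer cells of a type and less RNA per cell cannot be told apart.

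**Figure D1:**
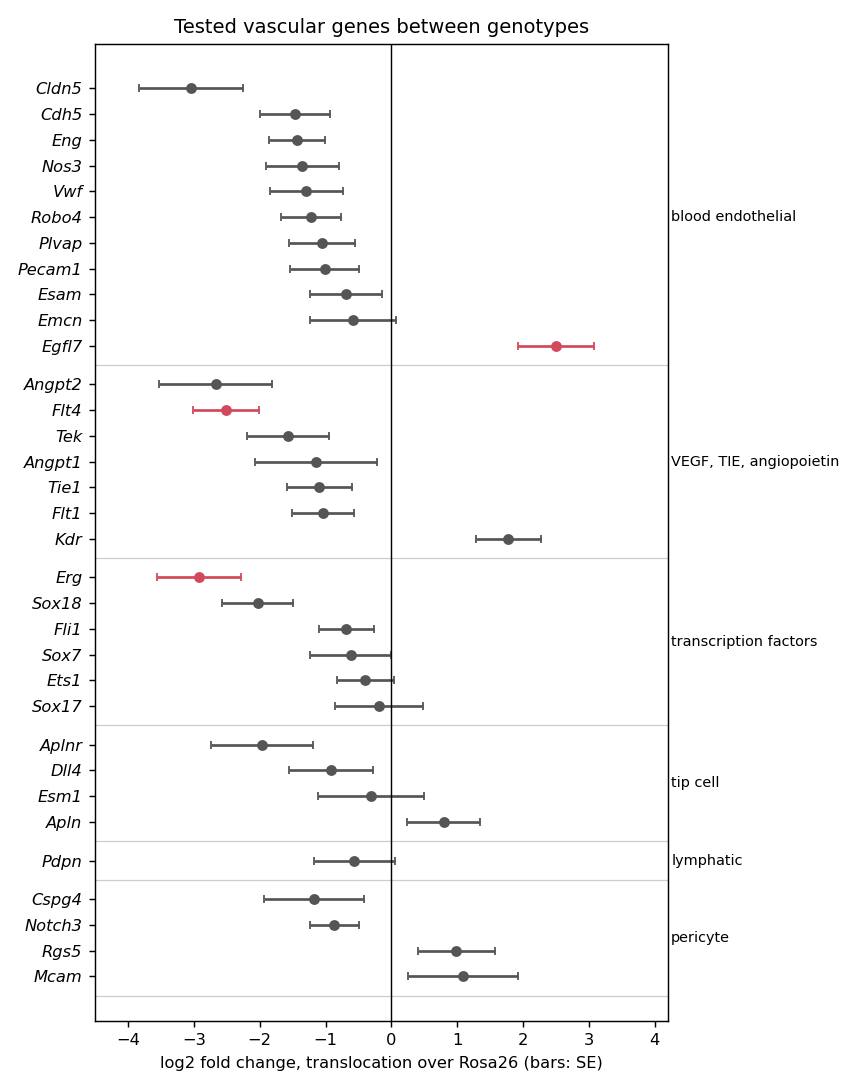
Log2 fold change of translocation over Rosa26 tumours for the 33 members tested, by role, with bars of 1 standard error from edgeR (5 and 6 tumours). Red points passed the adjusted threshold: Egfl7 at 2.50, Flt4 at -2.51 and Erg at -2.93; most others lie left of 0.

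Among the blood endothelial surface, junction and secreted genes, Egfl7 rose and 10 of 11 had a fold change below 0 without passing the test. Egfl7 (ENSMUSG00000026921, GRCm38 chr2:26580014-26593120, plus strand) encodes a matrix protein secreted by endothelium that guides tube formation and hosts the microRNA Mir126a in an intron. It stood at 249, 648, 492, 392 and 41.4 CPM in translocation tumours 1 to 5. The Rosa26 tumours ran from 32.8 through a median of 62.6 to 116 CPM, and muscle was at 87.4 CPM. Translocation tumours 1 to 4 were each above every Rosa26 tumour, and tumour 5 lay inside the Rosa26 range. The means were 364 ± 232 (SD, n = 5) and 66.2 ± 31.1 CPM (SD, n = 6), and the fold change was 2.50 ± 0.57 (SE; edgeR adjusted p = 0.0431). The call held in 1 of 11 fits that left out a tumour, the one without translocation tumour 5 (adjusted p = 0.0106), and the adjusted p reached 0.123 without Rosa26 tumour 3, the fold change staying between 2.18 and 2.79.

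Egfl7 shares its locus with Agpat2, a lipid synthesis gene on the other strand, and whether the counting used strand is not given in the sources used here. Agpat2 was at 35.3, 31.5, 117, 40.3 and 16.6 CPM in translocation tumours 1 to 5 and 11.5 to 17.3 CPM in the Rosa26 tumours. As for Egfl7, translocation tumours 1 to 4 were above every Rosa26 tumour and tumour 5 lay inside their range. The part of shared reads in either gene was not tested. Mir126a itself had 0 counts in every library, in a protocol that does not select small RNA.

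The ATF1 end of the fusion binds the cAMP response element, so the sequence upstream of the members was searched for it. RefSeq (GRCm38.p6) gave 25 windows of 250 bases before a start for 20 of the 34 members, and both strands were searched for the palindromic element TGACGTCA, its core TGACG, which lies inside it, and the ETS-type core GGAAGT. The full element was in 2 of the 25 windows, those of Flt1 and Mcam, and in 1.55% of all 32851 windows of this length. The core TGACG was in 4, those of Egfl7, Flt1, Mcam and Notch3, and in 17.8% of all windows. GGAAGT was in 6 windows of 5 members, Egfl7, Eng, Flt1, Kdr and Tie1, and in 19.7% of all. The windows below are those of Egfl7, Kdr, Flt1 and Erg, with a short stretch of Mcam, and matched letters are in capitals. Most windows without a match, such as that of Flt4, are not printed. That of Egfl7 is the middle one of 3 starts (chr2:26583615-26583864, plus strand), with TGACG 114 bases and GGAAGT 79 bases before the start. Of the other Egfl7 windows, chr2:26580833-26581082 holds GGAAGT without TGACG and chr2:26586386-26586635 holds none of these letters. A match describes letters, not binding, and no match says only that the letters are not in the window.
Egfl7: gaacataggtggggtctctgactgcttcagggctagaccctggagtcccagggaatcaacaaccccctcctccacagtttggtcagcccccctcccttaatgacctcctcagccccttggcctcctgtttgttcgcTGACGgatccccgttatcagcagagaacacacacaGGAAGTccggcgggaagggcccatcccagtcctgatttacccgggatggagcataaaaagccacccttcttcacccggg
Kdr: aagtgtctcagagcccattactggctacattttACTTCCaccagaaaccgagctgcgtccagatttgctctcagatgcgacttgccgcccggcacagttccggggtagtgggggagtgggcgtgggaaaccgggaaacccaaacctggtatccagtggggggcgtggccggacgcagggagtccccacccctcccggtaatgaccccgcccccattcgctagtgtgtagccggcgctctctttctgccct
Flt1: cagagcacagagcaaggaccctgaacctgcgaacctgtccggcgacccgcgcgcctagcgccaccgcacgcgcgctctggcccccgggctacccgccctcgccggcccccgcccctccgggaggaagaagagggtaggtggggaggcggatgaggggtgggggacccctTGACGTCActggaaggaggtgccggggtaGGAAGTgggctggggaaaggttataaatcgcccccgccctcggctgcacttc
Erg: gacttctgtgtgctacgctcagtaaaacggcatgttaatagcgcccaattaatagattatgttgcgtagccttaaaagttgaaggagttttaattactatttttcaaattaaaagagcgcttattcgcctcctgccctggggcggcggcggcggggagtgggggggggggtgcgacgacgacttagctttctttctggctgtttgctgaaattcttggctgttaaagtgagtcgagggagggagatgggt
Mcam: ccccgccccccTGACGTCAgcccccgacag
The Kdr window (chr5:75978456-75978705, minus strand) holds GGAAGT in reverse 217 bases before the start. That of Flt1 (chr5:147726012-147726261, minus strand) holds TGACGTCA 81 bases and GGAAGT 52 bases before the start. The outermost of 3 Erg windows (chr16:95586594-95586843, minus strand) holds none of these letters, nor do the other Erg windows or that of Flt4. Of Mcam the 30 bases around its TGACGTCA, which begins 29 bases before the RefSeq start, are given (chr9:44134618-44134647, plus strand). In the GENCODE M21 annotation the Mcam gene begins at chr9:44134469, so these bases lie inside the gene there.

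Cldn5, the tight junction claudin of endothelium, had the lowest fold change of the role. It was at 1.15, 3.50, 3.37, 11.9 and 1.07 CPM in the translocation tumours and from 4.41 through 41.0 to 61.7 CPM in the Rosa26 tumours. Only translocation tumour 4 reached into the Rosa26 range, at its low end set by Rosa26 tumour 5. The fold change of -3.04 ± 0.79 had an edgeR adjusted p of 0.0589 and passed in the fit without translocation tumour 4 (0.0352). Eng, the endoglin co-receptor for BMP and TGF-beta ligands, was at 33.5, 30.2, 23.9, 13.4 and 5.35 CPM against 32.5, 62.3 and 75.7 CPM (lowest, median and highest Rosa26 tumour). Translocation tumour 1 alone overlapped, just above Rosa26 tumour 1, and the fold change was -1.43 ± 0.43 (edgeR adjusted p = 0.0781).

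Plvap, the diaphragm protein of fenestrated capillaries, was at 7.77, 16.6, 34.3, 45.2 and 8.14 CPM and from 27.0 through 38.0 to 75.4 CPM. Translocation tumours 3 and 4 sat among the Rosa26 tumours and the other 3 below them. The same 3 tumours, 1, 2 and 5, were below every Rosa26 tumour for Pecam1 (14.8, 10.5 and 11.3 CPM against 43.0 or more), the adhesion molecule CD31. They were so too for Cdh5 (9.60, 5.69 and 5.67 CPM against 34.5 or more), the VE-cadherin of endothelial junctions, where tumour 3 was also below, at 27.9 CPM. The fold changes of both, -1.01 ± 0.52 for Pecam1 and -1.46 ± 0.53 for Cdh5, did not pass (edgeR adjusted p = 0.253 and 0.124). The other 5 of the role, Emcn, Esam, Vwf, Robo4 and Nos3, had fold changes from -0.58 (Emcn) to -1.35 (Nos3) and adjusted p-values of 0.130 or more.

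**Figure D2:**
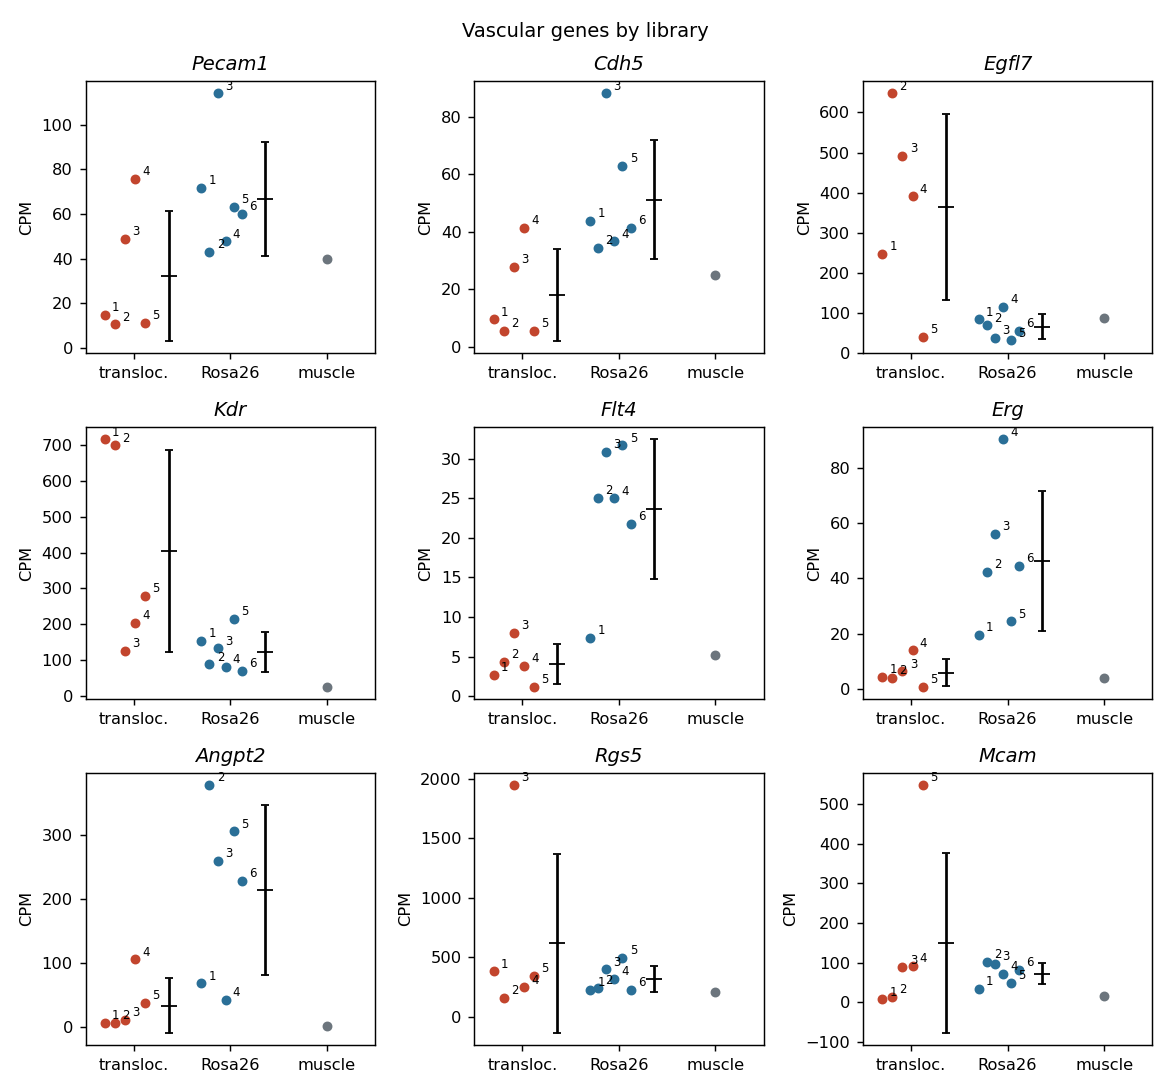
CPM of 9 members in each translocation tumour, Rosa26 tumour and the muscle library, one panel a gene on its own linear axis, with the mean and SD of each tumour group. Egfl7 is high in 4 of 5 translocation tumours, Erg separates the groups, and Rgs5 and Mcam are each high in a single translocation tumour.

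Among the 7 receptors and angiopoietins Flt4, the lymphatic and sprouting VEGF receptor, fell and 0 rose. Kdr, the main signalling receptor of VEGF, was the only one of the 7 with a fold change above 0. Kdr (ENSMUSG00000062960, chr5:75932827-75978458, minus strand) was at 717, 699.7, 125, 203 and 279 CPM in the translocation tumours and from 69.0 through 109.5 to 215 CPM in the Rosa26 tumours. Tumours 1, 2 and 5 were above every Rosa26 tumour, while 3 and 4 lay inside their range. The fold change of 1.78 ± 0.50 did not pass (edgeR adjusted p = 0.0686), and passed without translocation tumour 3 (0.0460).

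Flt4 (ENSMUSG00000020357, chr11:49609263-49652739, plus strand) was at 2.69, 4.38, 8.04, 3.89 and 1.21 CPM in the translocation tumours. In the Rosa26 tumours it ran from 7.40 through 25.1 to 31.7 CPM, and muscle was at 5.18 CPM. The single overlap was between translocation tumour 3 and Rosa26 tumour 1, and the other 5 Rosa26 tumours were at 21.8 CPM or more. The means were 4.04 ± 2.55 and 23.6 ± 8.81 CPM (SD, n = 5 and 6), and Flt4 fell, with a fold change of -2.51 ± 0.50 (SE; edgeR adjusted p = 0.0283). The call was lost without translocation tumour 1 (0.0663) or Rosa26 tumour 3 (0.0844), 5 (0.0652) or 6 (0.0692), with the fold change between -2.96 and -2.27 throughout.

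Angpt2, the vessel-loosening ligand, was at 5.47, 6.13, 10.9, 104.7 and 36.8 CPM against 41.8, 243.5 and 377 CPM (lowest, median and highest Rosa26 tumour). Translocation tumour 4 alone overlapped, with Rosa26 tumours 1 and 4. The fold change was -2.66 ± 0.86 (edgeR adjusted p = 0.0923), and -3.78 without translocation tumour 4, where it passed (0.0406). Its receptor Tek was at 1.02 to 6.69 CPM in the translocation tumours and 3.79 to 27.3 CPM in the Rosa26 tumours (-1.57 ± 0.63, edgeR adjusted p = 0.148), and Tie1, the orphan partner of TEK, at 3.17 to 22.1 and 18.4 to 51.6 CPM (-1.10 ± 0.50, 0.197). Flt1, often a decoy for VEGF, ran from 9.07 to 49.1 and from 32.3 to 80.4 CPM (-1.04 ± 0.47, 0.198). Angpt1, the quieting ligand, was the lowest of the role per length of transcript, at 0.14 to 4.51 and 0.728 to 9.59 CPM (-1.14 ± 0.93, 0.476).

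Among the 6 transcription factors Erg fell, all 6 fold changes were below 0, and 5 did not pass. Erg (ENSMUSG00000040732, chr16:95359169-95586593, minus strand), the ETS factor that sustains endothelial identity and junctions, was at 4.41, 3.94, 6.37, 13.9 and 0.791 CPM in the translocation tumours. The Rosa26 tumours ran from 19.6 through 43.5 to 90.3 CPM, and muscle was at 3.81 CPM. Every translocation tumour was below every Rosa26 tumour, with tumour 4 nearest. The means were 5.89 ± 4.92 and 46.2 ± 25.4 CPM (SD, n = 5 and 6), and Erg fell, with a fold change of -2.93 ± 0.64 (SE; edgeR adjusted p = 0.0367). The call held in 4 of 11 fits leaving out a tumour, those without translocation tumour 4 or 5 or Rosa26 tumour 1 or 2. It was lost without any other tumour, at adjusted p-values up to 0.0933 and fold changes of -2.58 or below.

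Sox18, a SOXF factor of vascular and lymphatic development, was at 1.44, 2.19, 5.64, 3.21 and 1.63 CPM against 4.86, 8.65 and 28.2 CPM (lowest, median and highest Rosa26 tumour). Translocation tumour 3 alone overlapped, above Rosa26 tumour 1, and the fold change was -2.03 ± 0.54 (edgeR adjusted p = 0.0620). It passed without translocation tumour 3 (0.0461). Fli1, an ETS factor shared with blood cells, was at 12.1, 8.76, 18.3, 22 and 4.42 CPM and from 12.9 through 20.3 to 36.5 CPM (-0.68 ± 0.42, edgeR adjusted p = 0.334). Ets1, also expressed in lymphocytes, was at 27.3, 41.6, 43.6, 26.2 and 70.6 CPM and from 23.2 through 45.7 to 116 CPM (-0.40 ± 0.43, 0.605). Rosa26 tumour 1 was the highest tumour for both. That tumour also had the highest summed levels of the 8 T and NK cell genes, 99.9 CPM, and of the 6 B and plasma cell genes, 334 CPM; their part in these 2 values was not tested. Sox7 and Sox17, the other SOXF factors, were at 7.44 CPM or less in every tumour and overlapped, with fold changes of -0.62 and -0.19.

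Of the tip cell genes 0 of 4 passed in edgeR, with 1, Aplnr, at an unadjusted p below 0.05, and Aplnr alone passed in the DESeq2 Wald test. Aplnr, the receptor of apelin on sprouting endothelium, was at 2.30, 0.876, 8.57, 1.71 and 2.88 CPM and from 2.60 through 11.2 to 33.4 CPM (-1.97 ± 0.78, edgeR adjusted p = 0.148). In the Rosa26 group 3 tumours were at 18.4 CPM or more and 3 at 3.95 or less, among the translocation tumours. Apln, its ligand, was at 8.06, 2.19, 3.04, 1.76 and 2.60 CPM against 0.688, 2.23 and 3.50 CPM for the lowest, median and highest Rosa26 tumour (0.79 ± 0.55, edgeR adjusted p = 0.397). Its highest value was in translocation tumour 1, and without that tumour the fold change was 0.21.

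Dll4, the Notch ligand of tip cells, was at 1.82, 1.75, 13.5, 19.6 and 1.72 CPM, and from 9.48 through 15.1 to 19.9 CPM in the Rosa26 tumours (-0.91 ± 0.64, edgeR adjusted p = 0.404). Translocation tumours 3 and 4 were inside the Rosa26 range and 1, 2 and 5 below it, as for Pecam1. Esm1, the secreted proteoglycan endocan, was at 2.21, 0, 28.3, 5.18 and 12.8 CPM and from 4.33 through 12.8 to 21.6 CPM (-0.31 ± 0.81, edgeR adjusted p = 0.850). The 0 in tumour 2 allows up to 1.31 CPM, since 3 counts of that shallow library are worth as much; such limits cover counting error only.

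Of the lymphatic pair, Prox1 was at 0.768, 0, 0.0812, 0.155 and 0.0465 CPM in the translocation tumours, 14 counts in all. In the Rosa26 tumours it ran from 0.245 through 0.435 to 2.95 CPM, and 51 of the 85 counts came from Rosa26 tumour 1, the tumour with the muscle genes, whose part in it was not tested. Pdpn, the mucin podoplanin of lymphatic endothelium that fibroblasts also make, was far higher, at 113, 115, 59.2, 110.1 and 4.70 CPM and from 75.2 through 98.9 to 260.2 CPM. Translocation tumour 5 stood far below the other 10 tumours, and the fold change was -0.56 ± 0.61 (edgeR adjusted p = 0.605). The fibroblast and collagen list was also lowest in that tumour, at a sum of 386 CPM against 2009 to 98579 CPM in the other 10; its part in Pdpn was not tested.

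Among the 4 pericyte genes 0 passed in edgeR, DESeq2 or limma voom, 1, Notch3, was at an unadjusted edgeR p below 0.05, and 2 fold changes lay on each side of 0. Rgs5, a regulator of G protein signalling abundant in pericytes, was at 382, 162, 1949, 248 and 346 CPM and from 227 through 281 to 495 CPM in the Rosa26 tumours. Translocation tumour 3 stood at 1949 CPM, tumour 2 was below every Rosa26 tumour, and the other 3 lay among them. The fold change was 0.99 ± 0.59 (edgeR adjusted p = 0.319) with that tumour and -0.12 without it. Mcam, the adhesion molecule CD146 of pericytes and endothelium, was at 8.06, 14.0, 88.1, 91.4 and 547 CPM and from 33.5 through 77.0 to 102 CPM. Translocation tumour 5 held the top value and tumours 1 and 2 the lowest, and the fold change was 1.08 ± 0.84 (edgeR adjusted p = 0.449) with tumour 5 and -0.50 without it. The 6 Schwann cell and melanocyte genes were also highest in that tumour, at a sum of 302 CPM against 28.8 CPM or less in the others; their part in Mcam was not tested.

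Cspg4, the NG2 proteoglycan of pericytes, was at 10.5, 81.9, 63.3, 81.7 and 3.53 CPM and from 29.3 through 120.3 to 216 CPM (-1.17 ± 0.76, edgeR adjusted p = 0.363). Translocation tumours 1 and 5 were below every Rosa26 tumour. Notch3, the Notch receptor of mural cells, was at 27.6, 28.5, 16.6, 17.9 and 23.4 CPM and from 22.6 through 31.8 to 85.4 CPM (-0.87 ± 0.37, edgeR adjusted p = 0.172). Its 5 translocation values lay close together, with an SD of 5.44 CPM on a mean of 22.8, and overlapped with the Rosa26 values.

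**Figure D3:**
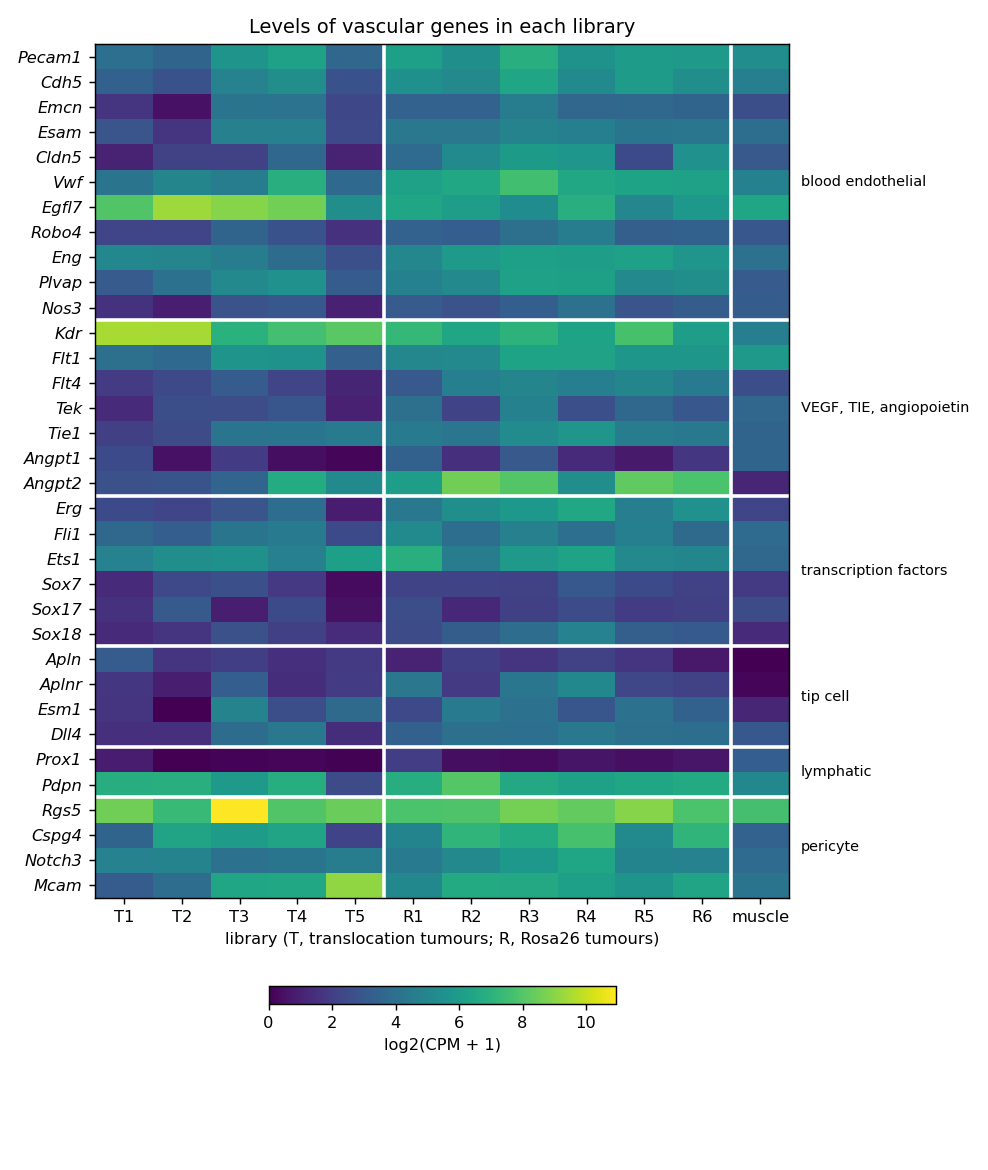
Level of each of the 34 members in the 12 libraries, as log2(CPM + 1) on a colour scale, grouped by role and by genotype and not scaled by row. Translocation tumours 1, 2 and 5 are low over most endothelial rows, with Kdr, and Egfl7 in tumours 1 and 2, as exceptions.

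The translocation tumours were not alike. Tumours 1, 2 and 5 were each below the lowest Rosa26 tumour for 23 of the 33 members tested, against 11 for tumour 3 and 10 for tumour 4. Of all 17021 genes tested, the share below the lowest Rosa26 tumour was 23.8%, 30.8%, 20.5%, 19.5% and 37.8% in translocation tumours 1 to 5. Tumour 2 is the shallowest library and one of the pair rich in ribosomal sequence. Tumour 5 was the lowest of all 11 tumours for 16 of the 33, tumour 2 for 7 and tumour 1 for 5. Among the Rosa26 tumours, tumour 4 was the highest of all for 10 members and tumour 3 for 9. The share of all genes for which each tumour was the lowest or highest is not given here. These counts of extremes are therefore not read as particular to the members. With translocation tumours 2 and 5 and Rosa26 tumour 4 left out, the members' median fold change was -0.59 and only Egfl7 was called. Without translocation tumour 1, or without Rosa26 tumour 3, 5 or 6, 0 members were called by edgeR, although 28 of 33 fold changes stayed below 0. Summing Rosa26 tumours 5 and 6, whose titles are related, also left 0 called, with 28 below 0. The DESeq2 Wald test called 11 members, where it called 14.9% of all genes, and limma voom with quality weights called 7, where it called 15.6%, each including Egfl7, Flt4 and Erg.

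Of the marker lists of other cell types given here, 1 platelet and 1 T cell gene were called between the models; the part of these lists in the member values was not tested. Of the platelet list, which shares genes with the circulation inside vessels, 3 of 8 were tested and Pf4 alone rose (fold change 3.76 ± 0.66, edgeR adjusted p = 0.0181). The sum of the list was 25.2 to 224 CPM in the translocation tumours and 14.9 to 33.6 CPM in the Rosa26 tumours. In translocation tumours 1 and 5 that sum was mainly Pf4, at 1943 and 781 counts. The next gene of the list there, Itgb3, had 173 and 44. Ppbp, Gp9 and Gp6 were at 0 in translocation tumour 2. Of the T and NK cell list 7 of 8 were tested and Cd3e alone fell (-4.93 ± 1.11, edgeR adjusted p = 0.0413). At an unadjusted edgeR p below 0.05 stood 5 of the 7, all lower in the translocation tumours. The median fold change of the 7 was -3.41, and the list summed to 5.85 to 24.0 against 9.0 to 99.9 CPM. The erythroid list summed to 148 to 11233 CPM in the translocation tumours, highest in tumour 1, and to 2.62 to 1003 CPM in the Rosa26 tumours. The fibroblast list summed to 386 to 22395 and 5520 to 98579 CPM, and the macrophage list to 324 to 2990 and 668 to 2296 CPM. Of these 3 lists 0 genes were called by edgeR; at an unadjusted p below 0.05 stood 5 of the 5 erythroid genes tested, all higher in the translocation tumours, 1 of 8 fibroblast genes and 0 of 8 macrophage genes.

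Compared per length of exon, in CPM per kilobase, the members stood in a different order in each model. By the median of the translocation tumours Egfl7 came first at 109, followed by Rgs5 at 76.2, Pdpn at 60.6, Kdr at 30.9 and Mcam at 26.3. By that of the Rosa26 tumours Angpt2 came first at 66.0, followed by Rgs5 at 61.8, Pdpn at 54.5, Cldn5 at 28.9 and Mcam at 23.0. Prox1, Angpt1 and Sox17 were the lowest in both. Among the receptors the translocation medians were 30.9 for Kdr, 3.54 for Tie1, 1.14 for Flt1, 1.05 for Tek and 0.472 for Flt4. The Rosa26 medians were 12.1 for Kdr, 4.63 for Tie1, 4.02 for Flt1, 3.04 for Flt4 and 1.98 for Tek. In both models Kdr and Flt1 lay in opposite order to muscle, where Flt1 was at 4.45 and Kdr at 2.75.

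Set against Cdh5 per length in the same library, Kdr and Egfl7 were the 2 members whose ratios did not overlap between the models. The ratio of Kdr to Cdh5 was 34.8, 57.2, 2.09, 2.29 and 22.9 in translocation tumours 1 to 5, from 0.696 to 1.63 in the Rosa26 tumours and 0.462 in muscle. That of Egfl7 to Cdh5 was 30.4, 134, 20.7, 11.1 and 8.57, from 0.510 to 3.71 in the Rosa26 tumours and 4.1 in muscle. Tumour 5, whose Egfl7 level lay inside the Rosa26 range, was above it by this ratio, and its Cdh5 level, 5.67 CPM, was the lowest of the 11 tumours. Cdh5 had 100, 13 and 122 counts in translocation tumours 1, 2 and 5, so the ratios of tumour 2 above all are imprecise. A low Cdh5 level raises the ratio of any gene. Only these 2 of the 32 other members tested did so upward and 0 downward, against 10.6% and 0.306% of all genes, so the count itself is below the share of all genes. For Pecam1 the ratio was 1.04 to 1.34 against 0.676 to 1.10, and for Erg 0.169 to 0.840 against 0.471 to 2.98. These ratios were looked at after the levels were seen and carry no test.

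**Figure D4:**
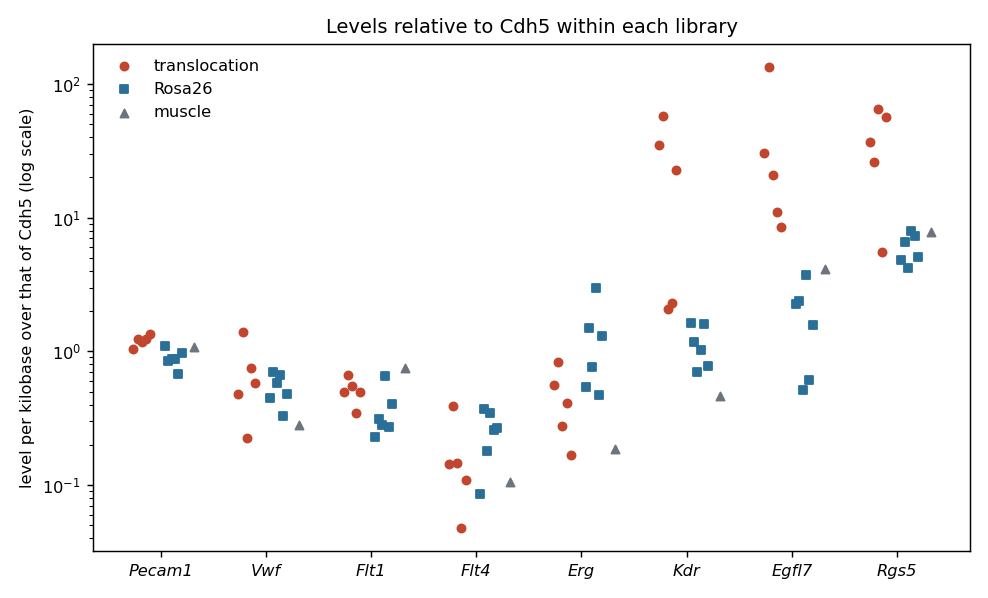
Ratio of a member's CPM per kilobase to that of Cdh5 in the same library, on a log axis, for translocation tumours, Rosa26 tumours and muscle. Kdr and Egfl7 lie above the Rosa26 range in all 5 translocation tumours, while Pecam1, Flt4 and Erg overlap.

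Angpt2 exceeded its antagonist in each tumour. Per length, the ratio of Angpt2 to Angpt1 was 1.71 to 475 in the translocation tumours, 9.95 to 591 in the Rosa26 tumours and 0.168 in muscle. The lowest ratios were in translocation tumours 1 and 3, at 1.71 and 5.32. Angpt1 had only 1, 6 and 3 counts in translocation tumours 2, 4 and 5, where the ratios were 19.7, 475 and 372. Ratios over so few counts are imprecise. In the Rosa26 tumours Angpt1 had 9 to 178 counts. The groups overlapped.

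A further list of 60 vascular pathway genes, which holds none of the members, was read from the same fit. Of these, 57 were tested, 0 rose, and 1 fell, against 1.14% and 1.56% of all genes. The median fold change was -0.27, and 38 of 57 were below 0. The gene that fell was Ptprb, the VE-PTP phosphatase that acts on TEK and on VE-cadherin junctions, at 9.88, 14.0, 34.1, 50.7 and 6.23 CPM against 69.8, 93.6 and 215 CPM (lowest, median and highest Rosa26 tumour). The groups did not overlap, and the fold change was -2.27 ± 0.54 (edgeR adjusted p = 0.0492). The list gave 0 calls in 9 of the 11 fits that left out a tumour and with no filter on low counts.

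Pdgfb, the ligand by which endothelium recruits pericytes, did not overlap either, at 3.07, 4.82, 9.30, 9.59 and 2.14 CPM against 11.9 or more in the Rosa26 tumours (-1.68 ± 0.48, edgeR adjusted p = 0.0728). All 9 vascular Notch genes had a fold change below 0 and 0 passed in edgeR, with 2 at an unadjusted p below 0.05, the lowest adjusted p being that of Notch1 (-0.95 ± 0.37, edgeR adjusted p = 0.145). Heyl, a Notch target of mural cells, was at 0.438 to 22.7 against 7.46 to 41.8 CPM (-1.68 ± 0.70, 0.162). Of the BMP and TGF-beta genes, Smad1 (-0.85 ± 0.29, edgeR adjusted p = 0.108) and the receptor Bmpr2 (-0.68 ± 0.30, 0.188) came closest to the threshold.

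Of the further endothelial markers, 5 of 14 were above 0 and 9 below, with a median of -0.13. The lowest adjusted p-values were those of Tal1, a factor of blood and endothelium (-2.70 ± 0.90, edgeR adjusted p = 0.10), and Mmrn2, a matrix partner of Cd93 and Clec14a (-1.42 ± 0.66, 0.202). Of the lymphatic markers Lyve1, also made by macrophages, ran from 0.233 to 190 CPM in the translocation tumours and from 0.875 to 73.5 CPM in the Rosa26 tumours (1.35 ± 1.31, edgeR adjusted p = 0.558). Ccbe1, a VEGF-C processing partner, had a fold change of -0.07 ± 1.09 (0.974). Ccl21a had 0 counts in all 12 libraries, which allows up to 1.31 CPM in the shallowest and 0.115 CPM in the deepest tumour. These limits cover counting error only, not how reads were assigned to genes, so absence of the transcript is not shown. Of the smooth muscle genes, Myh11 was at 1.07 to 7.98 against 5.84 to 36.6 CPM (-2.04 ± 0.64, edgeR adjusted p = 0.0878). Cnn1 was at 0, 0, 3.78, 19.2 and 41.7 CPM against 0.147 to 2.49 CPM (3.25 ± 1.27, 0.144), so translocation tumours 1 and 2 lacked counts where 3 to 5 were above every Rosa26 tumour.

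Against muscle there was 1 control library, so no test was made, and both tumour groups were set against that same library. A member counted as past the fold when the group mean was at least 2-fold from muscle with every tumour on that side. In the translocation tumours 5 members were higher (Kdr, Angpt2, Ets1, Apln and Aplnr) and 5 lower (Nos3, Flt1, Tek, Angpt1 and Prox1), where 24.1% of all genes were higher and 24% lower. In the Rosa26 tumours 20 members were higher and 2 lower (Angpt1 and Prox1), where 34.7% were higher and 28.4% lower. The 20 comprised the 5 above and Cdh5, Emcn, Vwf, Eng, Plvap, Flt4, Tie1, Erg, Sox18, Esm1, Dll4, Pdpn, Cspg4, Notch3 and Mcam.

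Angpt2 was at 1.27 CPM in muscle, 25.8-fold lower than the translocation mean and 168-fold lower than the Rosa26 mean. Kdr, at 24.8 CPM in muscle, was 16.3-fold and 4.96-fold higher in the translocation and Rosa26 means. Aplnr had 1 count in muscle, and means of 3.27 ± 3.05 and 13.5 ± 12.4 CPM in the tumours (SD, n = 5 and 6). Apln had 0 counts in muscle and was at least 12.1-fold higher in the translocation mean and 7.27-fold in the Rosa26 mean, against the 0.293 CPM that 3 counts are worth. Erg was 12.1-fold higher in the Rosa26 mean and 1.55-fold in the translocation mean, where it did not count as past the fold. Angpt1, at 10.6 CPM in muscle, was 6.43-fold higher there than in the translocation mean and 2.75-fold higher than in the Rosa26 mean. Prox1 was 40.4-fold and 10.3-fold higher in muscle.

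Part of this comparison depends on the scale. Plain CPM, with no TMM factor, raised the median of all expressed genes over muscle by 1.31 log2 in the translocation and 1.39 log2 in the Rosa26 tumours. On it the members past the fold numbered 12 higher and 1 lower for translocation, and 29 and 0 for Rosa26. The share of all genes past the fold on plain CPM is not given here, so these counts say nothing particular to the members. Nos3 and Flt1 then turned from -1.31 and -1.19 to 0.19 and 0.30 in the translocation tumours, and Angpt1 from -1.46 to 0.05 in the Rosa26 tumours. Prox1 stayed lower in both groups under TMM, DESeq2 size factors and plain CPM, and Kdr, Angpt2, Ets1 and Aplnr stayed higher in both.

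**Figure D5:**
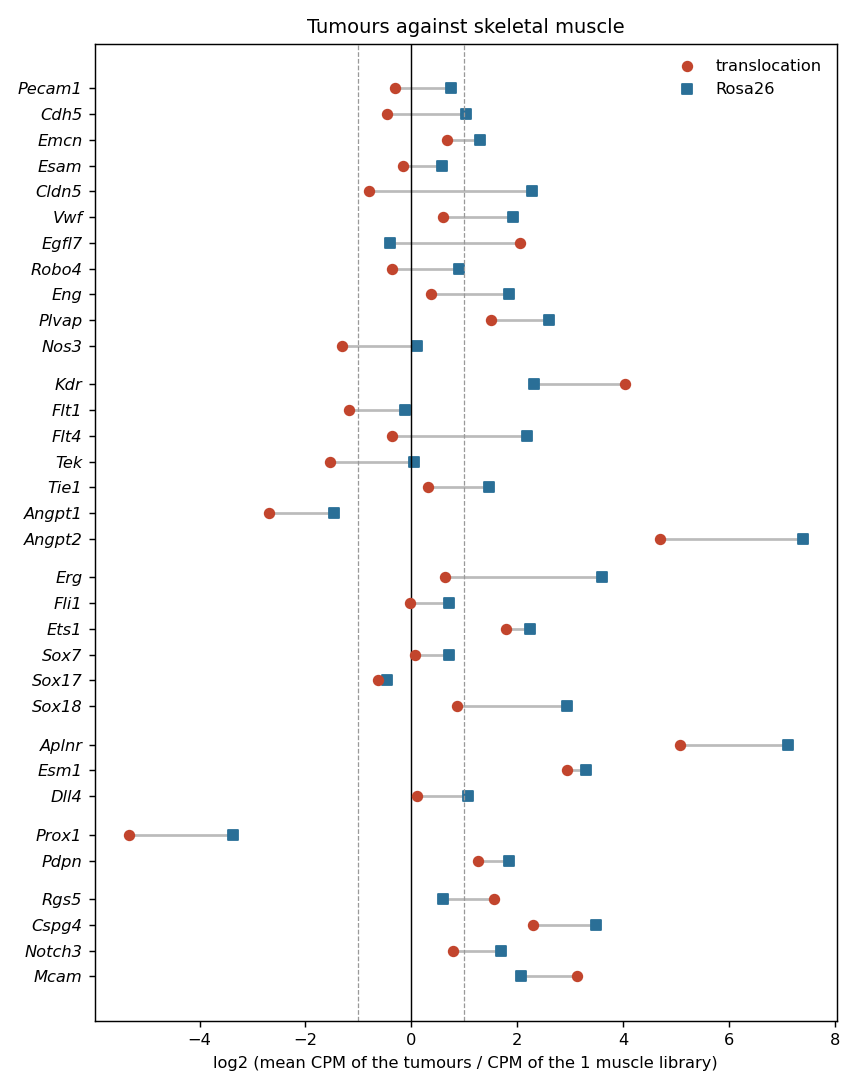
Log2 ratio of the translocation mean and of the Rosa26 mean to the single muscle library for 33 members, Apln at 0 in muscle being left out, on the TMM scale over 12 libraries, with dashed lines at 2-fold. Angpt2 and Aplnr lie farthest to the right and Prox1 farthest to the left in both groups; both sets of points share 1 muscle library.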

How the data were processed

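RNA-seq was made from 11 tumours and 1 muscle, snap-frozen, as stranded libraries after removal of ribosomal RNA, per the labels' protocols. The authors deposited raw whole-number counts per Ensembl gene, with 1 column a sample. Tools listed in the submitters' processing notes are featureCounts, RSEM, DESeq2, cutadapt and STAR 2.7.5a, with build mm10. Neither the strand setting nor the annotation release is given there, and overlapping genes may share reads. Symbols, positions and exon lengths came from GENCODE M21, which named 55450 of 55536 identifiers.

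The tumours were compared with edgeR 4.0.16 in R 4.3.3 (TMM, filterByExpr with a minimum count of 10, robust quasi-likelihood tests, Benjamini-Hochberg at 0.05 over 17021 genes), a procedure tested on simulated data. Levels are CPM scaled over 12 libraries. Alternatives were DESeq2 size factors, no filter, the DESeq2 1.42.0 Wald test, limma 3.58.1 voom, a skeletal muscle covariate, sums of libraries with related titles, doubted libraries left out, and each tumour left out. A count of 0 was given a floor of 3 counts.

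All members are accounted for; the rule named called members, up to 3 a role by adjusted p and 2 a role by level per length, and up to 2 pathway genes a sub-list by adjusted p. Members have their value in each translocation tumour with the lowest, median and highest Rosa26 tumour, or a range; most pathway genes have a range or a fold change. Agpat2, the marker genes and the other members named were chosen outside that rule. The members, lists and tests were chosen with earlier results of these data known. Promoter windows came from RefSeq; the 14 members without one were Angpt1, Angpt2, Aplnr, Cdh5, Ets1, Fli1, Nos3, Pecam1, Plvap, Sox7, Sox17, Sox18, Vwf and Esam.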

Additional observations from a re-analysis of the deposited data

Results flagged for a closer look

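Within a group, the highest or lowest tumour was set against the rest by Dixon's gap. Normally distributed values pass this measure by chance in about 1 of 20 groups. It was applied to untransformed CPM, so that rate need not hold here. Of 68 groups of member values, 13 passed, 7 in the translocation and 6 in the Rosa26 tumours, each through its highest tumour. Pericyte genes gave the 2 highest of these levels, Rgs5 at 1949 CPM in translocation tumour 3 and Mcam at 547 CPM in translocation tumour 5, next to 382 and 91.4 CPM in the nearest other tumour. Among the blood endothelial genes, Vwf stood at 119 CPM in translocation tumour 4 and 196 CPM in Rosa26 tumour 3. Cldn5 stood at 11.9 CPM in translocation tumour 4 and Emcn at 23.2 CPM in Rosa26 tumour 3. In Rosa26 tumour 4, the library with 30.0% ribosomal sequence, Nos3 was at 16.1 CPM and Sox7 at 7.0 CPM. Of the tip cell genes, Apln was at 8.06 CPM in translocation tumour 1 and Aplnr at 8.57 CPM in translocation tumour 3. Pdpn stood at 260.2 CPM in Rosa26 tumour 2. Prox1 was at 0.768 CPM in translocation tumour 1 and 2.95 CPM in Rosa26 tumour 1.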

How the results depend on the processing

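No paired analysis was possible because the replicate numbers were given in deposit order and tumours of the 2 models share no number in their titles. Member calls between the models, 3 in all, became 11 with the DESeq2 Wald test, 7 with limma voom, 0 with Rosa26 tumours 5 and 6 summed and 1 without translocation tumours 2 and 5 and Rosa26 tumour 4; leaving out 1 tumour gave 0 to 5. Calls over all genes, 460 in all, became 2439 with the Wald test, 2651 with voom, 282 with the skeletal muscle covariate, 91 with Rosa26 tumours 5 and 6 summed and 815 with translocation tumours 2 and 5 summed, and 63 to 744 on leaving out 1 tumour. The pathway list gave 6 calls with the Wald test and 5 with voom, and 0 with no filter, with the covariate, with either sum or without the 3 doubted libraries; leaving out 1 tumour gave 0 to 1. At 2-fold, 10 members were past muscle in the translocation and 22 in the Rosa26 tumours, and leaving out 1 tumour gave 10 to 13 and 21 to 22; at 4-fold with all tumours they were 6 and 13. Fold changes that turned over, none of them called, were those of Mcam with voom (-0.78) and without the 3 libraries (-0.19), and of 4 members on leaving out 1 tumour: Mcam (-0.50 to 1.40), Rgs5 (-0.12 to 1.23), Sox17 (-0.79 to 0.092, above 0 without translocation tumour 3 or 5) and Esm1 (-1.21 to 0.011, above 0 without 2). The causes were not tested. Translocation tumour 2, at 2.96 M counts, limits the low genes most, and the single muscle library gives no replicate check.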
